A study of Mus musculus with 2 samples.

Results

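The heat shock chaperones described here are 10 named genes of the 32285 genes counted in single cells of mouse hippocampus: Hspa1a, Hspa1b, Dnajb1, Hspb1, Hsph1 and Hsp90aa1, taken as the stress-inducible members, and Hspa8, Hsp90ab1, Hspa5 and Hspe1, taken as the constitutive members. They were chosen by name, and all 10 matched 1 gene symbol each. Their levels and their spread between cells were compared over cell classes gated on marker genes and between 2 libraries. The Crlf3-mutant library came from mice carrying the L389P change in Crlf3, a gene of a cytokine receptor-like factor, and the wild-type library from mice without it. Mice of both genotypes were 4 weeks old and untreated, and each library pooled 4 hippocampi of 2 mice into 1 droplet run. The tissue had been dissociated with enzymes and cleared of myelin and debris, and live cells had been sorted. The genotype could not be checked from UMI counts of Crlf3, because the change alters 1 residue of the protein and need not alter the level of the transcript. With 1 library per genotype, no difference between the genotypes was tested. Every interval below is a 95% interval for counting error only (exact Poisson for levels, exact Clopper-Pearson for shares of cells), and it does not cover differences between mice, dissociations or sorts.

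Heat shock proteins hold unfolded proteins in solution and help them to fold or be degraded. When misfolded protein builds up, the transcription factor HSF1 is released, forms trimers and binds heat shock elements, which are inverted repeats of the unit nGAAn, in the promoters of the inducible genes. The constitutive relatives do the same work in unstressed cells, and Hspa5 in the endoplasmic reticulum answers instead to the unfolded protein response. Tissue dissociation is a known inducer of heat shock and immediate early genes in brain cells.

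The promoters are shown because Hspa1a and Hspa1b cannot be told apart over most of their length, and because the HSF1 site is what groups the inducible genes by textbook knowledge. Sequences are RefSeq's on GRCm38.p6, read 5′ to 3′ towards the gene and ending at the base before its start, with heat shock elements in capitals. The search used TTCNNGAA or GAANNTTC for 2 units and TTCNNGAANNTTC or GAANNTTCNNGAA for 3 units, on both strands, with overlapping matches allowed.
Hspa1a (chr17:34972157-34972406, minus strand): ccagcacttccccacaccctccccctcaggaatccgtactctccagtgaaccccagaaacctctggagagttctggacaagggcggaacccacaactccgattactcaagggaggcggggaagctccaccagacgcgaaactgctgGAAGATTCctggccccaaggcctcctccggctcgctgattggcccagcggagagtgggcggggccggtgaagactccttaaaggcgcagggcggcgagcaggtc
Hspa1b (chr17:34959239-34959488, minus strand): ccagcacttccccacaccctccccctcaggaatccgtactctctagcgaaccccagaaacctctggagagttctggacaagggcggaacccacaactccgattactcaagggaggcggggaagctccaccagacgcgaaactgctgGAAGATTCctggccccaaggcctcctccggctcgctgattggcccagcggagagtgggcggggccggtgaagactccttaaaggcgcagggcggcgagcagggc
Hspb1 (chr5:135887669-135887918, plus strand): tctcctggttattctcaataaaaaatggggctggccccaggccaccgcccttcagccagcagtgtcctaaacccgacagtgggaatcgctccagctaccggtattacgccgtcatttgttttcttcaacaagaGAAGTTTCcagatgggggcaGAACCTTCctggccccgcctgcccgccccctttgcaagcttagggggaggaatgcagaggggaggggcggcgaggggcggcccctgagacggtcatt
Hspe1 (chr1:55087898-55088131, plus strand): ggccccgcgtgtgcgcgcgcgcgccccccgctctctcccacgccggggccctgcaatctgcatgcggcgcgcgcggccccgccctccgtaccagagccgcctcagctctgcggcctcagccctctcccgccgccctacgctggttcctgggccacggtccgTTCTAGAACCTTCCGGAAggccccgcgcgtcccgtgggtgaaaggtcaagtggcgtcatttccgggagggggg

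Of all 32851 promoter windows in the reference table, 12.8% held a match of 2 units and 0.466% a match of 3 units within the 250 bases before the start. A match is a description of letters and not a bound site. The Hspa1a and Hspa1b windows each held 1 match of 2 units, 104 bases before the start. Hspb1 held 2, at 117 and 97 bases. Hspe1, which makes the mitochondrial co-chaperonin and was taken as constitutive, held 3 overlapping matches of 2 units and 2 of 3 units. Its printed window leaves out the last 16 bases, which lie inside the annotated gene. Hsph1 held 1 match of 2 units, 33 bases before its first listed start, and no match was found in the Dnajb1 and Hspa5 windows. The Hspa5 window held 1 ER stress element, searched as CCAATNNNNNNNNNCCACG or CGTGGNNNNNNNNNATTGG and present in 0.113% of windows. Hsp90aa1, Hspa8 and Hsp90ab1 were not matched to a window.

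Hspa1a and Hspa1b lie 9951 bases apart on the minus strand of chromosome 17, each as a gene of 1 exon. Their 250 bases before the start were identical at 247 positions, their 5′ untranslated parts at 228 of 231, and their coding parts differed at 8 aligned bases and by a gap of 3. The libraries counted the 5′ ends of transcripts, where the 2 genes are nearly the same. How reads that match both genes were counted is not given in the sources used here. The split between Hspa1a and Hspa1b is therefore uncertain, and their sum is given beside each.

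After filtering, the mutant library held 5275 cells with a median of 7385 UMIs and the wild-type library 7104 cells with a median of 6193 UMIs. Barcodes shared by the libraries numbered 64, of which 54 were among the cells used in both. A cell was put in a class when at least 4 of the 10 markers of that class had a UMI and the number was at least 2 times that of any other class. Class names mean cells that resemble the type by these markers, since no annotation of cells was used here. A total of 6 classes had at least 50 cells in both libraries: microglia (3242 mutant and 4419 wild-type cells), endothelial cells (794 and 800), astrocytes (489 and 775), neuron lineage cells, which carry neuroblast markers such as Dcx (188 and 152), mural cells of vessel walls (165 and 126) and choroid plexus cells (95 and 307). All 10 own markers were highest in their own class in both libraries. Microglial markers summed to 15.6 to 83.1 CPM in the other classes of the mutant library and 22.5 to 66.5 CPM in those of the wild-type library, against 13976 and 13907 CPM in microglia. Levels are in CPM, a gene's UMIs for every 1e+06 UMIs summed over the class, and they do not scale with transcript length.

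The inducible Hsp70 genes and Hspb1 differed far more between cell classes than the other members did. Hspa1a and Hspa1b, the stress-induced cytosolic Hsp70 proteins, summed to 1769 CPM in mutant mural cells and 2094 CPM in wild-type mural cells, to 1078 and 1425 CPM in endothelial cells, and to 443 and 526 CPM in microglia. Astrocytes stood at 32.3 and 29.0 CPM, choroid plexus cells at 14.0 and 11.0 CPM, and the neuron lineage at 4.21 (1.92 to 7.99) and 3.60 (1.17 to 8.40) CPM, from 9 and 5 UMIs. Both libraries gave this order. For the sum, the only neighbouring classes that overlapped within counting error were choroid plexus cells (7.63 to 15.2 CPM) and the neuron lineage, in the wild-type library alone. The highest class was 420 times the lowest in the mutant library and 582 times in the wild-type library, folds that rest on those few UMIs. Hspa1a alone had 7 UMIs in the mutant neuron lineage and 0 in the wild-type neuron lineage, where 3 UMIs would be 2.16 CPM.

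**Figure D1:**
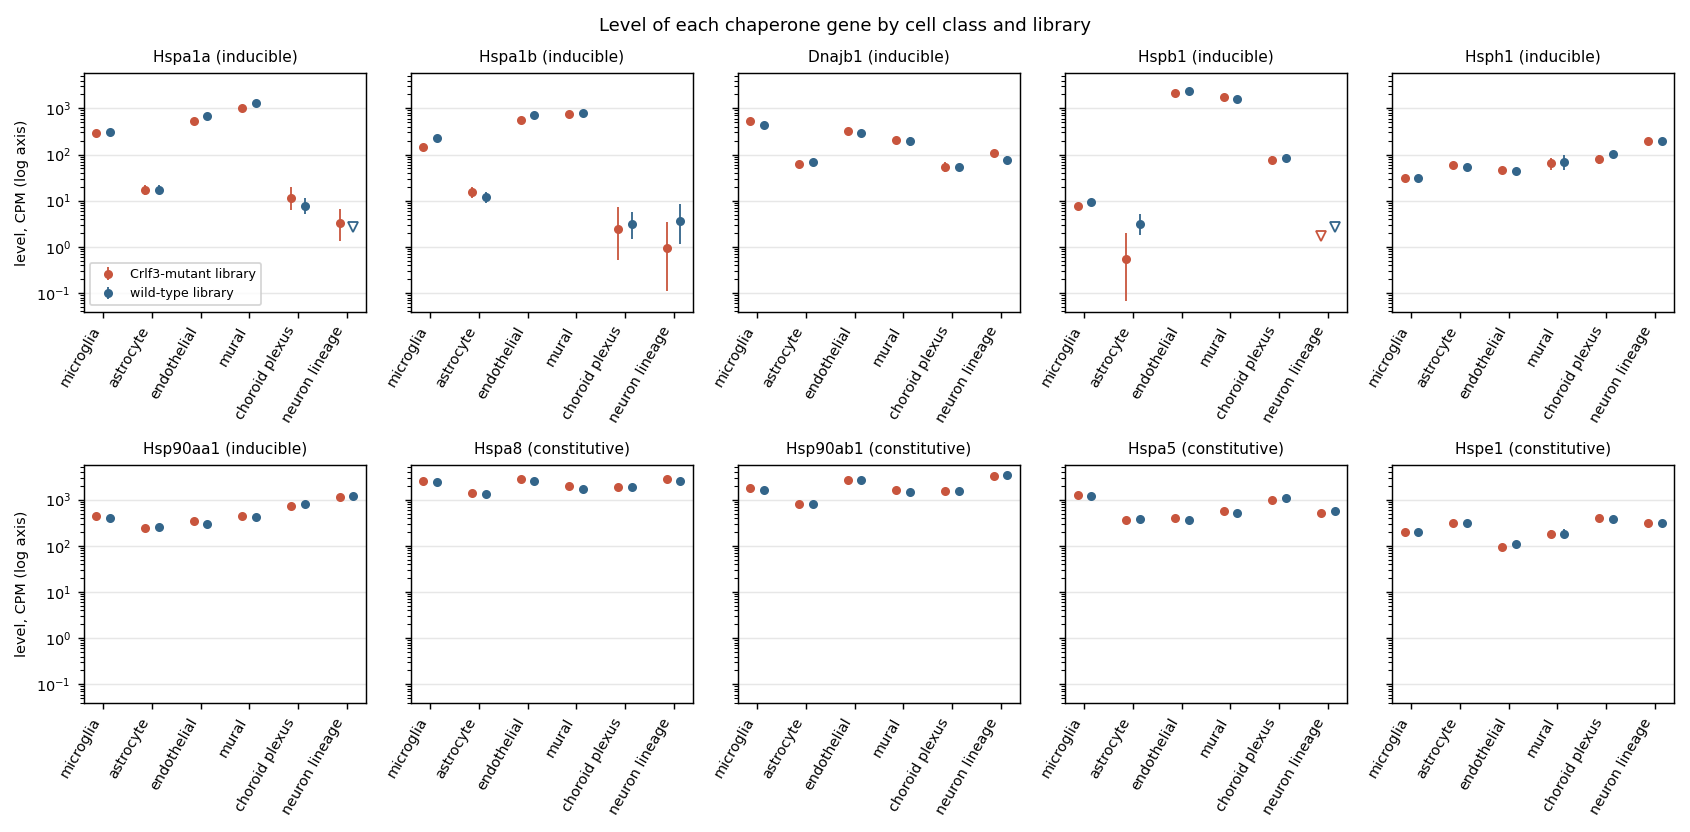
Level in CPM (log axis) of each chaperone gene in the 6 cell classes, Crlf3-mutant library left and wild-type library right, with exact 95% counting intervals. Open triangles mark the upper bound where no UMI was counted. Hspa1a, Hspa1b and Hspb1 span orders of magnitude between classes, while Hspa8 varies 2.05-fold in the mutant library and the libraries lie close together within each class.

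Hspb1, the small heat shock protein Hsp27, was a gene of the vessel classes. It stood at 2131 CPM in mutant and 2407 CPM in wild-type endothelial cells, and at 1763 and 1590 CPM in mural cells. Choroid plexus cells held 75.8 and 84.5 CPM, microglia 7.78 and 9.50 CPM, and the neuron lineage 0 UMIs in both libraries. Against the level that 3 UMIs would give in the neuron lineage, endothelial cells were at least 1519-fold higher in the mutant library and at least 1114-fold higher in the wild-type library. Hspb1 thus shared the vessel classes with Hspa1a and Hspa1b, but lay far below both of them in microglia.

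Dnajb1, the Hsp40 co-chaperone that hands substrates to Hsp70, had another order. It was highest in microglia (532 CPM in mutant and 431 CPM in wild-type cells), then in endothelial cells (331 and 298 CPM), mural cells (206 and 195 CPM), the neuron lineage (110 and 75.6 CPM), astrocytes (61.4 and 70.0 CPM) and choroid plexus cells (53.5 and 53.2 CPM). No neighbouring classes in this order overlapped within counting error in both libraries, but some did in 1. The neuron lineage and astrocytes overlapped in the wild-type library (61.8 to 91.5 and 62.6 to 77.9 CPM). Astrocytes and choroid plexus cells did in the mutant library (53.6 to 69.9 and 41.3 to 68.2 CPM). Dnajb1 was thus present in the neuron lineage, where Hspa1a and Hspa1b together had fewer than 10 UMIs in each library.

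Hsp90aa1, the inducible cytosolic Hsp90, and Hsph1, an Hsp110 that exchanges the nucleotide of Hsp70, were highest where Hspa1a and Hspa1b were lowest. Hsp90aa1 reached 1158 CPM in the mutant and 1177 CPM in the wild-type neuron lineage and 731 and 813 CPM in choroid plexus cells. It was lowest in astrocytes, at 240 and 250 CPM. Hsph1 was 192 and 199 CPM in the neuron lineage and lowest in microglia, at 31.4 and 30.5 CPM. For Hsp90aa1, mural cells and microglia overlapped within counting error in both libraries. The inducible members therefore did not share a class order.

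The constitutive members were present in every class and varied by 2.00 to 4.26 times between the highest and the lowest class, Hsp90ab1 by 4.07 times in the mutant and 4.26 times in the wild-type library, near the 4.82 and 4.71 times of the inducible Hsp90aa1. Hspa8, the housekeeping Hsc70, ranged from 1367 CPM in astrocytes to 2804 CPM in endothelial cells of the mutant library, a 2.05-fold range, and from 1292 CPM in astrocytes to 2583 CPM in the neuron lineage of the wild-type library, a 2.00-fold range. Its levels in the neuron lineage and endothelial cells overlapped within counting error in both libraries. Those in choroid plexus and mural cells did so in the mutant library only. Endothelial cells lay above microglia, at 2755 to 2853 against 2567 to 2606 CPM in the mutant library. In the wild-type library these intervals were 2498 to 2599 and 2335 to 2370 CPM. Hsp90ab1, the constitutive cytosolic Hsp90, was highest in the neuron lineage (3278 CPM in mutant and 3352 CPM in wild-type cells) and lowest in astrocytes (806 and 786 CPM). Both Hsp90 genes were thus highest in the neuron lineage, and both lowest in astrocytes.

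The organelle chaperones had orders of their own. Hspa5, the BiP protein of the endoplasmic reticulum, was highest in microglia (1256 CPM in mutant and 1196 CPM in wild-type cells), followed by choroid plexus cells (986 and 1097 CPM), a secretory epithelium. Its lowest values, in astrocytes and endothelial cells, were 363 and 399 CPM in the mutant library and 388 and 359 CPM in the wild-type library, so their order differed between the libraries. The range over classes was 3.46 and 3.33 times. Hspe1, which caps the Hspd1 chaperonin in mitochondria, was highest in choroid plexus cells (395 and 379 CPM) and lowest in endothelial cells (95.9 and 111 CPM), a range of 4.12 and 3.42 times.

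Immediate early genes, which dissociation also induces, ran in a class order that resembled that of Hspa1a and Hspa1b in part. The 15 listed genes summed to 41963 CPM in mutant and 42913 CPM in wild-type microglia, 32549 and 32604 CPM in endothelial cells, 23557 and 22111 CPM in mural cells, 6286 and 6388 CPM in astrocytes, 4938 and 5343 CPM in the neuron lineage, and 371 and 494 CPM in choroid plexus cells. The 3 classes with the highest Hspa1a and Hspa1b levels were the 3 with the highest immediate early sums, in the opposite order. The part of dissociation in the chaperone levels was not tested.

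Between genotypes, no measured chaperone reached a ratio of 1.5 times in any class when 10 CPM was added to each level, as was done for every call. Without that addition 1 did: the level of Hspa1b in microglia was 1.51 times higher in the wild-type than in the mutant library. Of the 60 pairs of a member and a class, 51 were measured (a mean of at least 20 CPM over the libraries and at least 30 UMIs), and 0 were called higher or lower. The 9 others were Hspb1 in microglia, astrocytes and the neuron lineage and Hspa1a and Hspa1b in astrocytes, choroid plexus cells and the neuron lineage. Few genes were called in the large classes at all. In microglia 0.0492% of 6096 genes were called lower in the mutant library and 0.0492% higher. The shares were 0.188% lower and 0.0145% higher in astrocytes, 0.0944% and 0.0157% in endothelial cells, 2.76% and 4.25% in mural cells, 0.518% and 1.08% in choroid plexus cells, and 0.288% and 0.589% in the neuron lineage. Log2 ratios below are mutant over wild type with this addition.

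**Figure D2:**
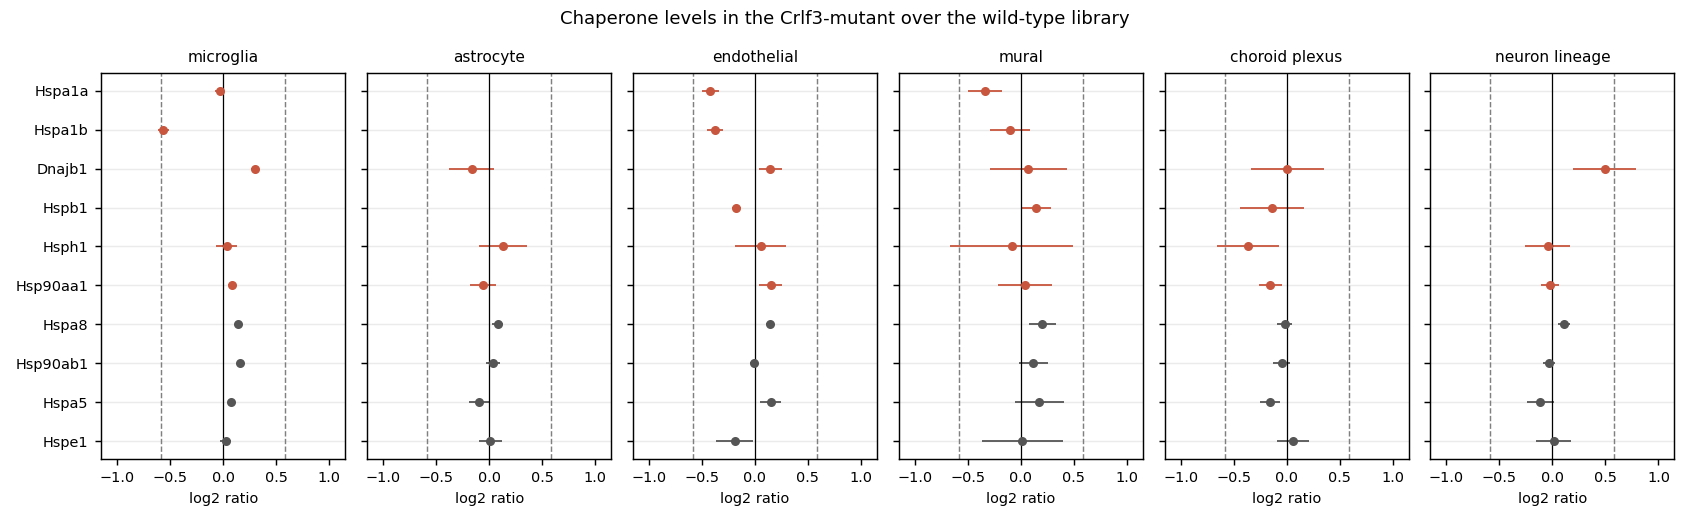
Log2 ratio of the level in the Crlf3-mutant over the wild-type library for each measured chaperone gene in each class, with counting intervals, inducible members in red and constitutive members in grey. Dashed lines mark 1.5 times, and no point lies beyond them, Hspa1b in microglia (-0.57) being the closest.

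Hspa1b in microglia came nearest to that line. It stood at 148 CPM (143 to 153) in mutant and 224 CPM (219 to 229) in wild-type microglia, a log2 ratio of -0.57 (-0.62 to -0.51). Hspa1a hardly differed, at 295 CPM in mutant and 302 CPM in wild-type microglia, a log2 ratio of -0.03 (-0.07 to 0.01). Their sum does not depend on how shared reads were divided, but it would lack any left uncounted. The sum had a log2 ratio of -0.24 (-0.28 to -0.21). The ratio of Hspa1a to Hspa1b UMIs was 1.99 in mutant and 1.35 in wild-type microglia, against 0.929 and 0.960 in endothelial cells and 1.35 and 1.59 in mural cells. The Hspa1b ratio passed 1.5 times when cells counted equally (-0.72 with the mean of per-cell CPM, -0.71 with thinned cells) and with a pseudocount of 1 CPM (-0.59), and it was -0.38 without the 5% of cells richest in the 10 genes together.

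In endothelial cells both genes were lower in the mutant library. Hspa1a stood at 519 CPM in mutant and 698 CPM in wild-type cells, a log2 ratio of -0.42 (-0.50 to -0.34), and Hspa1b at 559 and 727 CPM, a log2 ratio of -0.37 (-0.45 to -0.30). In mural cells the sum had a log2 ratio of -0.24 (-0.36 to -0.12). Dnajb1 went the other way: its log2 ratio was 0.30 (0.26 to 0.33) in microglia, 0.14 (0.04 to 0.25) in endothelial cells and 0.49 (0.20 to 0.79) in the neuron lineage. The last was the largest positive ratio of any member, from 236 UMIs in mutant and 105 UMIs in wild-type cells.

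The constitutive members lay within narrow limits. In microglia their log2 ratios were 0.14 for Hspa8, 0.16 for Hsp90ab1, 0.07 for Hspa5 and 0.02 for Hspe1, with a median of 0.10 against 0.01 over all 6096 genes measured. In the neuron lineage they were 0.11 for Hspa8, -0.03 for Hsp90ab1, -0.11 for Hspa5 and 0.01 for Hspe1. The median of the 5 measured inducible members in microglia was 0.03.

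Other genes of the chaperone system were as close between the libraries in microglia, where only 0.0492% of all genes were called lower and 0.0492% higher. In microglia, 0 of the 15 measured HSF1-related cytosolic genes, 0 of 13 co-chaperones of Hsp70 and Hsp90, 0 of 17 chaperones and folding factors of the endoplasmic reticulum, 0 of 6 mitochondrial chaperones and 0 of 8 subunits of the TRiC chaperonin were called. Their medians were 0.04, 0.00, 0.01, -0.01 and 0.04. Among them Hsf1, the regulator itself, stood at 51.4 CPM in mutant and 56.3 CPM in wild-type microglia, and Dnaja1, another Hsp40, at 360 and 319 CPM. In mural cells 4 genes of these lists were called higher in the mutant library, the HSF1-binding gene Hsbp1 (0.65), Stip1, whose protein links Hsp70 to Hsp90 (0.63), the co-chaperone gene Bag5 (0.68) and Creld2 of the endoplasmic reticulum (0.70), where 4.25% of all genes were called higher. They were 2 of 17 measured HSF1-related genes, 1 of 11 co-chaperones and 1 of 17 genes of the endoplasmic reticulum list. The mitochondrial and TRiC lists had 0 of 7 and 0 of 8. In endothelial cells 0 genes of these lists were called, where 0.0944% of all genes were called lower and 0.0157% higher. The medians there were 0.05 for the HSF1-related list, -0.04 for co-chaperones and 0.06 for the endoplasmic reticulum list. They were -0.10 for mitochondrial chaperones and 0.01 for TRiC, against 0.01 over all genes.

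The members differed more in how their UMIs were spread over cells. Each cell was thinned to 2000 UMIs, which left out 33 mutant and 66 wild-type microglia, and the variance of the count was divided by its mean, a ratio of 1 being what random sampling alone gives. Because this ratio grows with the mean, the excess squared coefficient of variation, the variance beyond sampling divided by the squared mean, is given beside it. Hspa1b in microglia had a variance of 7.69 times the mean in the mutant library and 10.4 times in the wild-type library, and an excess of 18.8 and 15.8. Hspa1a had 4.61 and 6.17 times, with an excess of 5.82 and 7.55. Over all genes measured, the median variance was 1.03 times the mean in both libraries and the median excess 0.176 and 0.177.

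**Figure D3:**
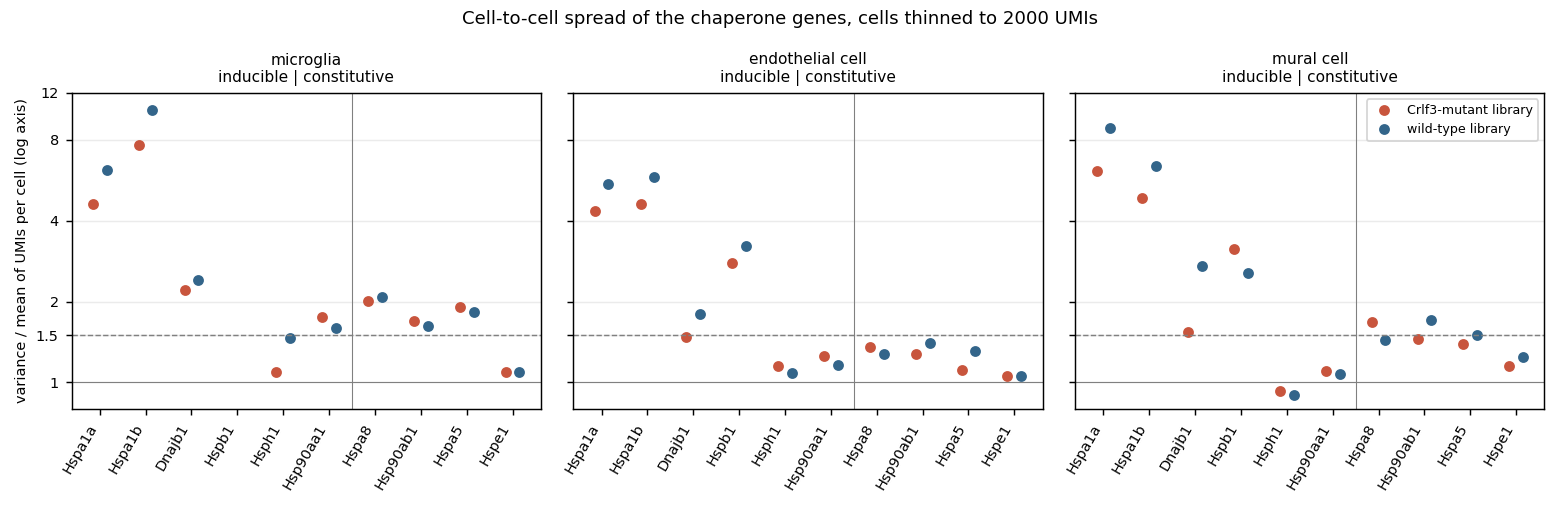
Variance over mean (log axis) of the UMIs per cell of each chaperone gene in microglia, endothelial cells and mural cells thinned to 2000 UMIs, Crlf3-mutant library left and wild-type library right of each pair, inducible members left of the vertical line. The dashed line marks 1.5, and Hspb1 has no point in microglia because its mean was under 0.05 UMIs. By variance over mean, Hspa1a and Hspa1b lie highest in each of the 3 classes.

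The 10% of microglia with the most UMIs of a gene held very different shares of that gene. For Hspa1b they held 90.4% of the UMIs in the mutant library and 93.6% in the wild-type library. For Hspa1a they held 68.0% and 74.4%. For Hspa8 they held 23.0% and 23.9%. This share follows the level in part, since a gene found in few cells is held by few: Hsph1, detected in 5.55% and 5.77% of thinned cells, had 100% of its UMIs there in both libraries. Hspa1b was detected in 13.4% of thinned mutant and 13.8% of thinned wild-type microglia (29.0% and 24.5% unthinned), and the highest thinned cell had 34 and 37 of its 2000 UMIs from this gene.

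The other inducible members had lower ratios of variance to mean. In microglia Dnajb1 had a variance of 2.21 times the mean in the mutant and 2.40 times in the wild-type library, with an excess of 1.11 and 1.67, and Hsp90aa1 had 1.74 and 1.59 times, with an excess of 0.843 and 0.698. Hsph1, at 0.0592 and 0.0705 UMIs per thinned cell, had 1.09 and 1.46 times, with an excess of 1.49 and 6.49, the wild-type value being above that of Hspa1a in the mutant library. The constitutive Hspa8 had 2.02 and 2.08 times but an excess of only 0.194 and 0.230, Hsp90ab1 an excess of 0.198 and 0.200, Hspa5 of 0.366 and 0.354, and Hspe1 of 0.238 and 0.239. In microglia every measured inducible member thus had a higher excess than every constitutive one, in both libraries.

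Counted over classes, the variance was at least 1.5 times the mean in 12 of 27 measured pairs of an inducible member and a class in the mutant library and 13 of 27 in the wild-type library. Constitutive members reached it in 8 of 24 pairs in each library. Over all genes the share that reached it was 3.1% in mutant and 3.29% in wild-type microglia, 2.44% and 2.43% in astrocytes, 2.84% and 3.09% in endothelial cells, 5.03% and 5.31% in mural cells, 3.73% and 2% in choroid plexus cells, and 4.21% and 4.51% in the neuron lineage. These counts set members with high levels beside all genes, most of them lower, so the excess is the closer comparison.

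In endothelial cells Hspa1a and Hspa1b were again the most uneven members. Hspa1a had an excess of 3.29 in the mutant and 3.01 in the wild-type library and Hspa1b of 2.97 and 3.05, against 0.0629 and 0.0533 for Hspa8 and 0.0532 and 0.0765 for Hsp90ab1. Hspb1, the most abundant inducible member there, was more even, with an excess of 0.413 and 0.449, and it was detected in 92.2% and 94.6% of thinned cells. In wild-type mural cells Dnajb1 had the highest excess, 3.82, above Hspa1a (2.83) and Hspa1b (3.11). In mutant mural cells it had 1.22, below Hspa1a (2.21) and Hspa1b (2.25). In the neuron lineage no inducible member reached 1.5 times, and Hspa5 did in both libraries, at 1.82 times in the mutant and 2.23 times in the wild-type library.

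Grouping microglia by the summed UMIs of Hspa1a and Hspa1b showed a small group of cells with many. Thinned cells with 0 UMIs were 64.5% in the mutant library and 67.5% in the wild-type library. Cells with 10 or more were 1.78% (1.35 to 2.30) in the mutant and 3.33% (2.82 to 3.91) in the wild-type library, and they held 31.6% and 48.7% of the UMIs of these genes. The mutant library had more cells with 1 UMI, 18.6% against 15.3% in the wild-type library. In endothelial cells 5.56% of mutant and 9.30% of wild-type cells had 10 or more, with counting intervals of 4.05 to 7.41 and 7.35 to 11.6 that touch.

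**Figure D4:**
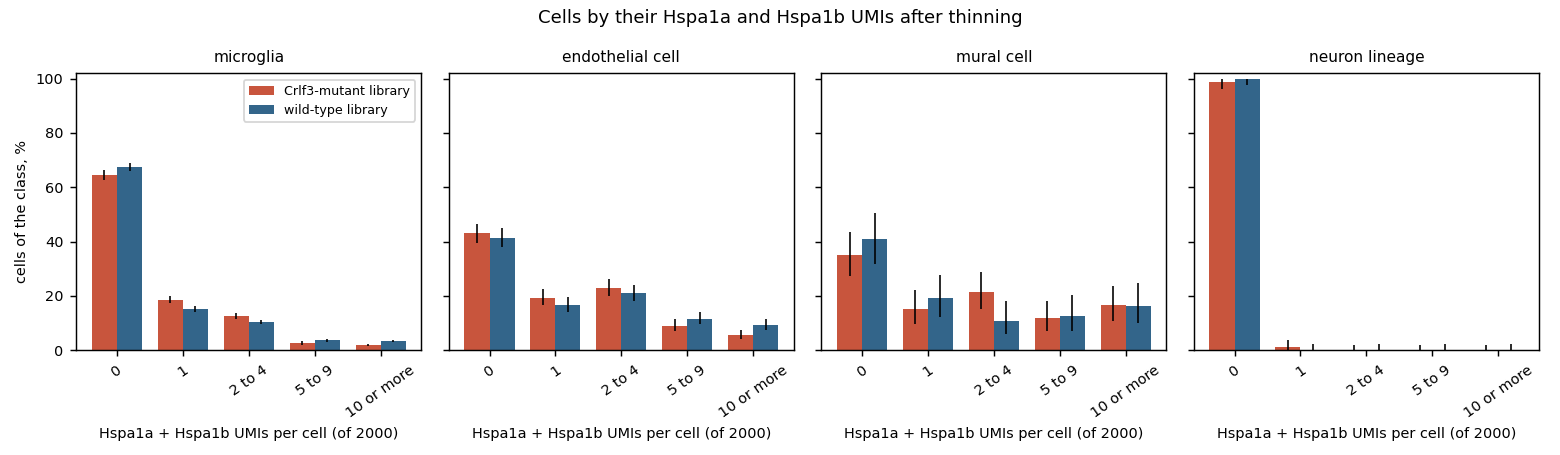
Share of cells (%) by the summed Hspa1a and Hspa1b UMIs among 2000 UMIs per cell, in 4 classes, Crlf3-mutant library left and wild-type library right of each pair, with exact 95% intervals. Most microglia have 0, mural cells have the largest share with 10 or more, and almost all neuron lineage cells have 0.

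Free RNA in the droplets can give UMIs to cells that do not express a gene, and the neuron lineage gives a bound on it. In that class 1.06% (0.129 to 3.79) of thinned mutant cells had a UMI of Hspa1a or Hspa1b, and 0 of 151 wild-type cells, which allows a share of up to 1.99% as 3 cells would give, or 2.41% as the exact upper limit. Microglia stood at 35.5% in the mutant and 32.5% in the wild-type library. Without thinning, 3.72% of mutant and 3.29% of wild-type neuron lineage cells had such a UMI, and these cells were deeper (medians of 10986 and 8777 UMIs) than microglia (7739 and 6338 UMIs), of which 61.0% and 53.3% did. The astrocyte share, 5.54% of thinned mutant and 4.20% of thinned wild-type cells, was also far below that of microglia.

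The counts of Hspa1a and Hspa1b went together over cells, weakly in microglia and more closely in vessel cells. Pearson's r between log(1 + count) values was 0.260 over 3209 mutant and 0.399 over 4353 wild-type thinned microglia, 0.463 and 0.609 in endothelial cells, and 0.700 and 0.762 in mural cells, where 145 mutant and 110 wild-type cells entered. These are descriptions over cells of 1 library each, and reads that match both genes, if they were counted, could add to them. Between any other members in microglia r was at most 0.251, that of Hspa8 and Hsp90ab1 in the wild-type library, which had 0.225 in the mutant library. These are near the 0.260 of Hspa1a and Hspa1b in the mutant library. In mural cells the sum of both genes had an r with the summed immediate early genes of 0.428 in the mutant and 0.623 in the wild-type library, against 0.07 and -0.05 in microglia. This r was 0.147 in mutant and 0.114 in wild-type endothelial cells, and 0.240 and 0.142 in astrocytes.

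The 5 genes outside the set with the highest r to the Hspa1a and Hspa1b sum in microglia were Hmox1, Jun, Rsrp1, Pnrc1 and Ccl3 in the mutant library, all at 0.093 or less. In the wild-type library the highest r was that of Rgs1, at 0.15. No gene was among the 5 highest in both libraries. At these values no gene can be said to share the pattern.

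Splitting microglia by sex-linked transcripts showed a larger contrast in Hspa1a, Hspa1b and Hsph1 than the genotypes did, but not in Dnajb1, Hspa8 or Hsp90ab1. The labels give no sex, but each library held cells in which Xist but no transcript of the Y chromosome was counted (Xist cells) and cells with the reverse (Y cells), so each pool of 2 mice held cells of both kinds, which must come from different mice. In microglia Hspa1b stood at 235 CPM in mutant and 286 CPM in wild-type Xist cells, and at 65.4 CPM in mutant and 117 CPM in wild-type Y cells. Xist cells were higher than Y cells in both libraries, by a log2 ratio of 1.70 in the mutant and 1.22 in the wild-type library. Within a kind of cell the mutant over wild-type log2 ratio was -0.27 in Xist cells and -0.75 in Y cells. Hspa1a showed a smaller contrast of 0.54 in the mutant and 0.61 in the wild-type library. For Hsph1 it was 0.41 and 0.44, against a genotype ratio of 0.03, and for Hspe1 0.17 and 0.04, against 0.02. For Dnajb1 it was -0.18 and -0.15, for Hspa8 0.06 and -0.08, and for Hsp90ab1 0.07 and -0.10, each nearer 0 than the genotype ratio of that gene.

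**Figure D5:**
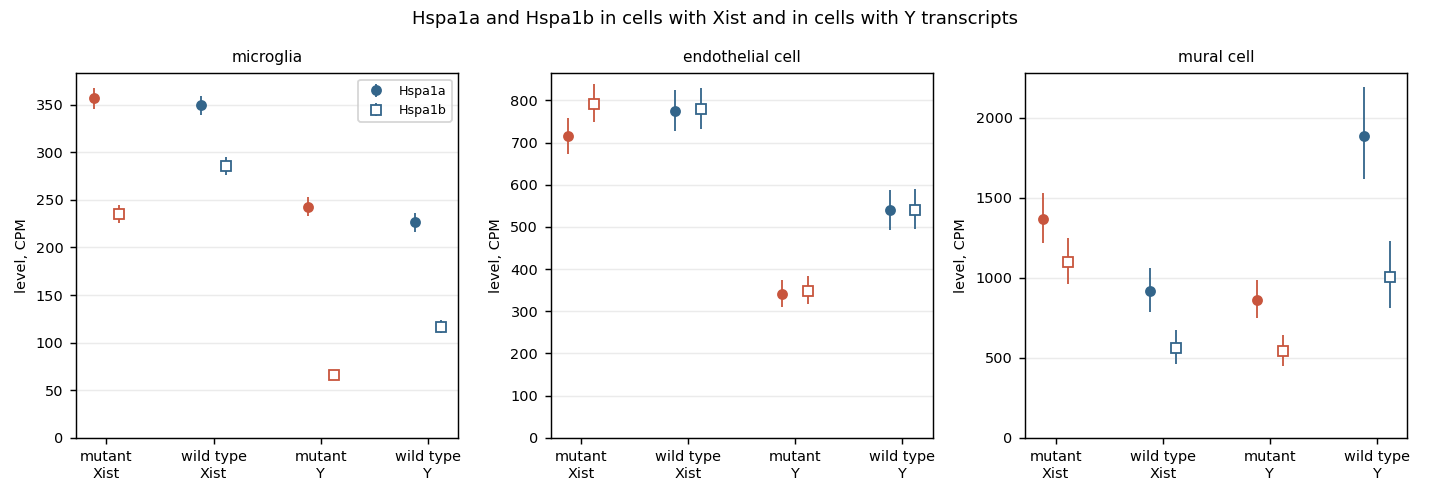
Level in CPM of Hspa1a (filled circles) and Hspa1b (open squares) in Xist cells and in Y cells, Crlf3-mutant library left of the wild-type library, with exact 95% counting intervals. In microglia and endothelial cells both genes are higher in Xist cells in both libraries, while in mural cells the libraries go opposite ways.

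Few genes behaved in this way. Hspa1b was 1 of 3 genes of 6096 that were at least 1.5 times higher in Xist than in Y microglia in both libraries, a share of 0.0492%. The others were Xist itself, which defined the cells, and Eps8l1. The 2 genes as much lower, 0.0328%, were Ddx3y and Eif2s3y, both on the Y chromosome. Median depth was 7889 and 8059 UMIs in mutant Xist and Y microglia and 6294 and 7028 UMIs in wild-type ones. Immediate early sums were 40921 and 42969 CPM in the mutant and 41769 and 44519 CPM in the wild-type library. The part of either in the Hspa1b contrast was not tested. The contrast was chosen after its values were seen. With 2 mice per pool, each kind of cell came from 1 mouse of a library, and sex and mouse cannot be told apart.

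The contrast lay in part in the cells with many UMIs. Without the 5% of cells richest in all members, the Hspa1a and Hspa1b contrast was smaller but kept its direction in both libraries. Thinned microglia with 5 or more Hspa1a and Hspa1b UMIs were 6.93% of mutant and 9.05% of wild-type Xist cells, and 1.84% of mutant and 2.99% of wild-type Y cells. Those with at least 1 UMI differed far less: 36.9% of mutant and 33.1% of wild-type Xist cells had one, against 34.7% of mutant Y cells and a counting interval of 27.5% to 32.7% in wild-type Y cells. The sum of both genes had a contrast of 0.92 in the mutant and 0.87 in the wild-type library, and its genotype ratio was -0.10 in Xist cells and -0.15 in Y cells, each nearer 0 than the -0.24 over all microglia. Those cells were 1391 and 1090 of 3242 mutant microglia and 2011 and 1241 of 4419 wild-type microglia, the rest having neither or both.

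Endothelial cells showed the same direction. Hspa1a stood at 715 CPM in mutant and 775 CPM in wild-type Xist cells, and at 340 and 539 CPM in Y cells, a contrast of 1.05 in the mutant and 0.51 in the wild-type library. The genotype ratio of the Hspa1a and Hspa1b sum, -0.40 over all endothelial cells, was -0.04 in Xist cells and -0.64 in Y cells. When Y cells alone were compared, pairs of a member and a class were measured anew. There were again 51, but not the same ones as over all cells. Of these, 9 were at least 1.5 times lower in the mutant library, among them Hspa1a in astrocytes, which was not measured over all cells. Another 1 was higher. Of all genes summed over the classes, 1.96% were lower and 3.18% higher. By class, the members called lower were 1 of 9 in microglia (0.0331% of all genes), 2 of 8 in astrocytes (1.37%), 2 of 10 in endothelial cells (0.932%), 3 of 9 in mural cells (11.4%), 1 of 8 in choroid plexus cells (1.54%) and 0 of 7 in the neuron lineage (2.59%). Of these 9 pairs 6 were of Hspa1a or Hspa1b, and the others were Dnajb1 in astrocytes, Hspa5 in mural cells and Hspb1 in choroid plexus cells. In Xist cells 0 of 42 pairs were lower and 1 was higher, where 1.42% and 1.56% of all genes were. The immediate early sum of astrocyte Y cells was 6300 CPM in the mutant and 10394 CPM in the wild-type library, and its part in their values was not tested. In mural cells the contrast of the sum was 0.81 in the mutant library and -0.96 in the wild-type library, from 50 and 47 cells in the mutant library and 47 and 26 in the wild-type library. Choroid plexus cells were not split, since 0 mutant and 3 wild-type cells were Xist cells, against 32 and 133 Y cells.

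With the 2 kinds of cells of each library as 4 points, 12 of 43 measured pairs of a member and a class had both mutant values above both wild-type values, 4 had both below, and 27 overlapped. In microglia 4 of 9 measured members lay above (Dnajb1, Hsp90aa1, Hspa8 and Hsp90ab1) and 0 below, where 23.3% of all genes lay above and 14.6% below. Dnajb1 there stood at 500 CPM in mutant and 419 CPM in wild-type Xist cells, and at 568 and 465 CPM in Y cells. In endothelial cells 4 of 10 lay above and 1 below, where 18% and 16.6% of all genes did. In the other 3 classes 4 of 24 lay above and 3 below, with backgrounds of 17.2% and 17% in astrocytes, 16.6% and 14.8% in mural cells and 17% and 16.5% in the neuron lineage. Hspa1a and Hspa1b overlapped in every class where they were measured.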

How the data were processed

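Single-cell libraries of the 5′ ends of transcripts were made from hippocampi, 1 library per genotype. Per the labels, the authors used Cell Ranger 6.1.1 and the reference mm10-2020-A, and Partek is listed without a role. The deposited values are UMI counts of each gene in each barcode, not normalized: 43103469 UMIs in 5720 barcodes (mutant) and 51328178 in 7713 (wild type). How the authors called cells and treated reads matching several genes is not given in the sources used here.

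Barcodes under 500 genes or 1000 UMIs, or above 10% of UMIs from mitochondrial genes, were dropped, and Scrublet in scanpy 1.11.5 at an expected rate of 0.06 removed 78 (1.46%) and 142 (1.96%) doublets. Uncalled doublets remain. Of the cells used, 245 (4.64%) mutant and 424 (5.97%) wild-type cells met no gate, and 8 of the 14 classes defined were too small. UMIs were summed per class and library and given as CPM. A pseudocount of 10 CPM was added before log2 ratios (mutant over wild type) were taken, and genes under a mean of 20 CPM or 30 UMIs were not measured. A ratio of 1.5 times was called higher or lower. For the spread, cells were thinned at random to 2000 UMIs, and genes under a mean of 0.05 were not measured. Promoters and positions came from RefSeq and GENCODE tables by symbol, and 7 of the 10 members had a promoter window. Calculations used Python 3.11.15, numpy 2.4.6 and scipy 1.17.1, and the ratio and spread calculations were tested on simulated data.

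All 10 members are named. Of every other list, the 4 measured genes farthest from 0 on the log2 scale were open to naming, and in microglia the 5 genes nearest to the Hspa1a and Hspa1b sum. Of the 88 genes of the 7 other lists, 87 matched a symbol. The members and lists were chosen with earlier results of these data known. Eps8l1, Ddx3y and Eif2s3y were named after their values were seen. No test was made, since the labels give 1 library per genotype. A total of 12 alternatives for levels and 8 for the spread were tried.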

Additional observations from a re-analysis of the deposited data

Results flagged for a closer look

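The genotype contrast of Hspa1b in mural cells pointed opposite ways in the 2 kinds of cells split by sex-linked transcripts. The mutant over wild-type log2 ratio was 0.96 in cells with Xist but no transcript of the Y chromosome (1098 CPM in 50 mutant cells and 560 CPM in 47 wild-type cells) and -0.88 in cells with the reverse (539 CPM in 47 mutant cells and 1004 CPM in 26 wild-type cells). The difference was not tested. Hspa1a, which shares most of its 5′ end with Hspa1b, had 0.57 and -1.13 in the same cells. Immediate early genes summed to 23186 CPM in mutant and 22593 CPM in wild-type mural cells with Xist, and to 28278 and 28487 CPM in the others. The part of single mice in these values was not tested.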

How the results depend on the processing

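No paired analysis was possible because there is 1 library per genotype. The count of member levels at least 1.5 times lower in the mutant library was 0 in the main setting. It was 1 with a stricter gate (Hsp90aa1 in choroid plexus cells, -0.64). It was also 1, Hspa1b in microglia, with the mean of per-cell CPM (-0.72), with cells thinned to 2000 UMIs (-0.71) and with a pseudocount of 1 CPM (-0.59). In Y cells alone, with pairs measured anew, it was 9 of 51, where 1.96% of all genes were that much lower. The count higher in the mutant library, also 0, was 1 in Xist cells alone (Hspa1b in mural cells, 0.96) and 1 in Y cells alone (Dnajb1 in the neuron lineage, 0.92), where 1.56% and 3.18% of all genes were that much higher. Summing Hspa1a and Hspa1b, an alternative chosen after seeing the data, left both counts at 0. Of 602 log2 ratios under an alternative, 519 lay within the counting interval of the main value, 83 moved beyond it, and 530 kept its sign. Without the 5% of cells richest in the 10 genes together, Hspa1b in microglia was -0.38. The Hspa1a and Hspa1b contrast between Xist and Y microglia was then 0.37 in the mutant and 0.54 in the wild-type library, and in endothelial cells 0.66 and 0.24, this contrast and its settings having been chosen after seeing the data. The looser gate gave -0.36 for the sum in astrocytes, against 0.12 in the main setting, whose interval held 0. Without thinning, the count of inducible pairs with a variance of at least 1.5 times the mean was 30 in the mutant and 27 in the wild-type library, and of constitutive pairs 22 in each, with more pairs measured; thinned to 4000 UMIs the constitutive counts were 15 and 13, and with a stricter cell filter the wild-type constitutive count was 4. In microglia the excess of Hspa1b ran from 5.03 to 19.6 in the mutant and from 12.1 to 23.4 in the wild-type library over the settings, and that of Hspa8 from 0.177 to 0.312 and from 0.219 to 0.378. Depth leaves Hspb1 in the neuron lineage with upper bounds and the Hspa1a and Hspa1b sum there with 9 mutant and 5 wild-type UMIs.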

Other observations

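Some genes outside the chaperone system were called higher or lower in classes where no member was. In astrocytes the immediate early genes Klf4 and Ier2, transcription regulators, were lower in the mutant library, at 41.8 and 155 CPM against 85.5 and 243 CPM in the wild-type library, log2 ratios of -0.88 and -0.62, while 11 other measured genes of that list were not called. Of all genes 0.188% were called lower in astrocytes. The sum of the immediate early list in astrocytes was 5947 CPM in mutant and 3482 CPM in wild-type cells with Xist but no Y transcript, and 6300 CPM in mutant and 10394 CPM in wild-type cells with the reverse, so both mutant values lay between the wild-type ones. In choroid plexus cells Fos and the phosphatase gene Dusp1 were lower, from 16 and 29 UMIs in the mutant and 140 and 149 UMIs in the wild-type library, log2 ratios of -1.22 and -0.74. They were 2 of the 5 genes of the immediate early list measured there, where 0.518% of all genes were called lower. Near the limit of the gate lay 30 of the 95 mutant and 66 of the 307 wild-type choroid plexus cells. Only 0 mutant and 3 wild-type cells of this class were Xist cells, against 32 and 133 Y cells. The part of single mice and of the gate in these ratios was not tested. In microglia the chemokine gene Ccl4 stood at 1323 CPM in the mutant and 1996 CPM in the wild-type library, a log2 ratio of -0.59. It was the 1 gene called among the 6 chemokine genes measured, where 0.0492% of all genes were called lower. Hspa1b in microglia was close to it, at -0.57, and passed 1.5 times without the addition of 10 CPM.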
